A study of Bos grunniens with 12 samples.

Results

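PIWI proteins and their Tudor partners form the piRNA pathway of germ cells, and their transcripts were followed here in yak testes of 2 ages. The genes were chosen by symbol, as every row of the deposited expression table whose symbol begins with PIWIL or TDRD and a number. This gave 22 rows of 20953, of which 4 are PIWIL rows and 18 are TDRD rows on 8 symbols. The input libraries of m6A immunoprecipitation sequencing, which hold the mRNA fragments before the antibody step, served as RNA-seq. They came from whole testis of 3 yaks of 1.5 years, taken by castration, and of 3 yaks of 5 years, taken after slaughter, so that age and the way of collection cannot be told apart. The ages are those in the sample titles (18M and 5Y) and in the growth protocol, which call 1.5 years before and 5 years after sexual maturity. A further label, the developmental stage, gives each sample the reverse of this, so groups are called by age here, and no library was placed by its values. Were the titles rather than this label in error, every difference between the ages given here would have the opposite sign. Replicate 1 of 5 years stood apart from the other libraries, with correlations of log2 levels across genes of 0.817 to 0.923 with them, beside 0.912 to 0.958 among the other 5.

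Piwi-interacting RNAs (piRNAs) are small RNAs that guide PIWI proteins to transposon transcripts and other targets in the germ line. PIWI proteins carry methylated arginines, and Tudor domains bind such residues, which gathers the pathway in cytoplasmic granules such as the intermitochondrial cement of spermatocytes and the chromatoid body of round spermatids. In the mouse testis PIWIL4 acts early, in fetal and neonatal germ cells, and PIWIL1 is made from the pachytene stage of meiosis to round spermatids.

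All 12 symbols have 1 entry each in the RefSeq gene table of the yak (assembly Bosgru_T2T1.0), while in the deposited table TDRD3 stands on 8 identifiers, TDRD7 on 3 and TDRD15 on 2. The identifiers of a repeated symbol differed in their annotation. ENSBGRG00000001363, labelled TDRD7, carries the GO terms ribonucleoprotein granule and spermatogenesis. ENSBGRG00000001437, also labelled TDRD7, carries only terms for enzymes such as those of retroelements (RNA-directed DNA polymerase and endonuclease activity, DNA recombination) and metal binding. Among the TDRD3 rows, ENSBGRG00000006762 is annotated as a translation elongation factor and ENSBGRG00000006810 as a cell adhesion protein. RNA-directed DNA polymerase activity is a term on 6 of the 22 rows (27.3%), those of TDRD5, TDRD9, PIWIL3 and ENSBGRG00000001437 and 2 of TDRD3, and on 16.8% of all rows of the table. Like ENSBGRG00000001437, the other rows with this term carry only terms for such enzymes and metal binding. Rows of a repeated symbol are reported by identifier. Which rows stand for the named protein was not tested, also for TDRD5, TDRD9, PIWIL3 and the TDRD3 row ENSBGRG00000006592.

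Levels are in FPKM, the fragments of a transcript relative to its length and to the size of the library, and can be compared between genes. PIWIL1 (ENSBGRG00000009726), a PIWI protein of meiotic and haploid germ cells, had the highest level of the 22 rows in each of the 6 libraries. Its FPKM was 43.9, 47.6 and 47.9 in the libraries of 1.5 years and 30.9, 44.4 and 37.7 in those of 5 years. The groups overlapped, because replicate 2 of 5 years lay above replicate 1 of 1.5 years. The means were 46.5 ± 2.25 and 37.7 ± 6.72 (SD, n = 3 each). Fitted with limma, 5 against 1.5 years gave a log2 fold change of -0.32 (SE, the standard error, 0.17) at an adjusted p of 0.28 and an unadjusted p of 0.11. Without replicate 1 of 5 years, the library with the lowest level, it was -0.18 at an adjusted p of 0.427. Under quantile normalization it was -0.08 (unadjusted p 0.59), and without replicate 2 of 5 years -0.44 (unadjusted p 0.0304, adjusted p 0.0924).

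**Figure D1:**
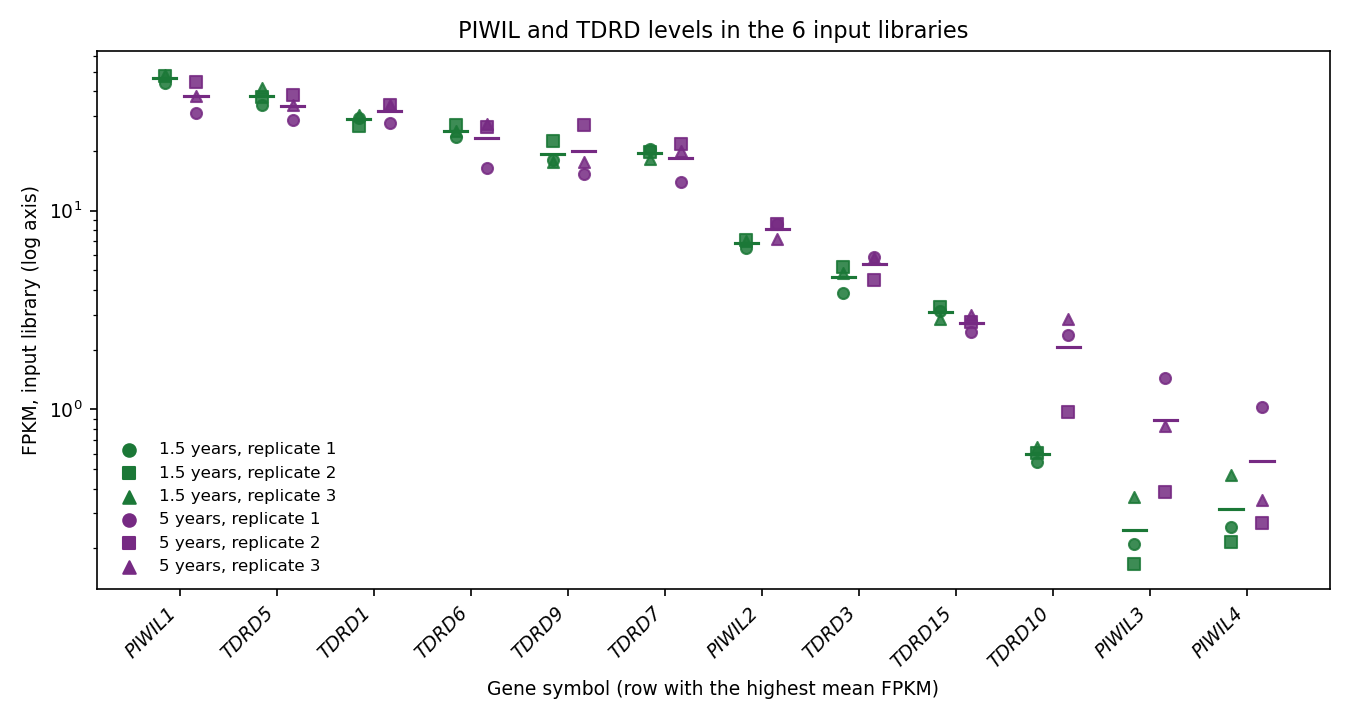
FPKM (log axis) of the 12 PIWIL and TDRD symbols in the 6 input libraries, each symbol at its row with the highest mean FPKM, with points for libraries and lines for group means. PIWIL1 led in every library, the first 6 symbols lay above the others, and TDRD10 and PIWIL3 were the symbols whose ages stood farthest apart.

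PIWIL2 (ENSBGRG00000010031), which loads the first piRNAs of the amplification cycle, was measured at 6.47, 7.08 and 7.01 FPKM at 1.5 years and at 8.57, 8.61 and 7.16 FPKM at 5 years. All libraries of 5 years were above all libraries of 1.5 years, with a narrow gap between 7.08 and 7.16. Its log2 fold change was 0.24 (SE 0.14) at an adjusted p of 0.317. PIWIL3 (ENSBGRG00000011316), which mice lack and which is known from the oocytes of cattle and humans, was low at 0.209, 0.166 and 0.365 FPKM at 1.5 years. At 5 years its level was 1.44, 0.383 and 0.829 FPKM, and the ages did not overlap. The gap was narrow, from 0.365 to 0.383 FPKM, and this row passed the minimum mean of 0.5 FPKM only through the libraries of 5 years. Its log2 fold change was 1.39 (SE 0.51) at an adjusted p of 0.17. PIWIL4 (ENSBGRG00000010477), the nuclear PIWI protein that directs DNA methylation of transposons, was at 0.257, 0.215 and 0.47 FPKM at 1.5 years and at 1.02, 0.269 and 0.352 FPKM at 5 years. It was below the minimum mean and was not tested, and its groups overlapped. Replicate 1 of 5 years held the highest level of PIWIL3 and of PIWIL4 and the lowest level of PIWIL1.

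The Tudor genes of the granules had levels between those of PIWIL1 and PIWIL2. TDRD5 (ENSBGRG00000009089), needed for the processing of pachytene piRNA precursors, was at 34.0, 37.4 and 41.5 FPKM at 1.5 years and at 28.4, 38.0 and 33.8 FPKM at 5 years. TDRD1 (ENSBGRG00000025091), the partner of PIWIL2 in the intermitochondrial cement, was at 29.0, 26.7 and 30.4 FPKM at 1.5 years and at 27.4, 33.9 and 33.8 FPKM at 5 years. TDRD6 (ENSBGRG00000025033), a scaffold of the chromatoid body, was at 23.4, 27.0 and 25.2 FPKM at 1.5 years and at 16.3, 26.4 and 27.2 FPKM at 5 years. In all of these the ages overlapped, and replicate 1 of 5 years was the lowest or, for TDRD1, the second lowest library. TDRD9 (ENSBGRG00000004595), an RNA helicase that works with PIWIL4, ranged from 17.5 to 22.3 FPKM at 1.5 years and from 15.2 to 26.8 FPKM at 5 years. TDRD7 (ENSBGRG00000001363), which organises the chromatoid body and is also needed in the lens, ranged from 18.1 to 20.3 FPKM at 1.5 years and from 13.8 to 21.6 FPKM at 5 years. The log2 fold changes of these genes were between -0.18 for TDRD5 and 0.14 for TDRD1, and the smallest adjusted p among them was 0.505. The value of TDRD1 was 0.34 under quantile normalization, with an unadjusted p of 0.0252 and an adjusted p of 0.184, and 0.09 with libraries scaled to the median ratio. Those of TDRD5 (-0.18), TDRD6 (-0.15) and TDRD7 (-0.10) were above 0 under quantile normalization and that of TDRD9 (0.01) was below 0 with libraries scaled to the median ratio.

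The order of the levels was PIWIL1, TDRD5, TDRD1, TDRD6, TDRD9, TDRD7, PIWIL2, TDRD3, TDRD15, TDRD10, PIWIL3 and PIWIL4 by mean FPKM, each symbol at its highest row. PIWIL1 was above TDRD5 in 6 of 6 libraries, although their ranges over the libraries overlapped. Each of the next steps, from TDRD5 to TDRD1, from TDRD1 to TDRD6 and from TDRD6 to TDRD9, held in 5 of 6 libraries. TDRD9 and TDRD7 could not be ordered, with TDRD9 higher in 3 of 6, and the same held for PIWIL3 and PIWIL4. The ranges did not overlap between TDRD7 and PIWIL2, between PIWIL2 and TDRD3, or between TDRD3 and TDRD15.

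TDRD10 (ENSBGRG00000008282), whose role in the testis is little known, was among the Tudor genes of low level. It was at 0.546, 0.603 and 0.646 FPKM at 1.5 years and at 2.36, 0.974 and 2.84 FPKM at 5 years, with no overlap. Its means were 0.598 ± 0.05 and 2.06 ± 0.97 FPKM (SD, n = 3 each), which in limma was 1.51 on the log2 scale (SE 0.39). The adjusted p was 0.154, and it was 0.0157 without replicate 2 of 5 years, the library of that age nearest to the younger group. The TDRD7 row ENSBGRG00000001437 was at 3.32, 5.12 and 5.48 FPKM at 1.5 years and at 1.26, 2.84 and 2.25 FPKM at 5 years. The ages did not overlap here either, and limma gave -1.13 on the log2 scale (SE 0.33, adjusted p = 0.154). The TDRD7 row with the term spermatogenesis, ENSBGRG00000001363, was at -0.10 on that scale (SE 0.19, adjusted p = 0.766). The difference between these rows was not tested.

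TDRD3 is a reader of methylated arginine that works with a topoisomerase and is not a known part of the piRNA machinery. Its row of highest level, ENSBGRG00000006592, carries only terms for enzymes such as those of retroelements and metal binding. The level of this row was 3.84, 5.23 and 4.84 FPKM at 1.5 years and 5.84, 4.48 and 5.78 FPKM at 5 years. The groups overlapped, and the log2 fold change was 0.21 (SE 0.18, adjusted p = 0.478). Of the other TDRD3 rows, ENSBGRG00000006779 was at 0.679 ± 0.626 and 1.22 ± 0.792 FPKM (SD, n = 3 each), and it was listed at 0 in replicate 1 of 1.5 years. The remaining 6 were at most 0.453 FPKM in any library, and ENSBGRG00000006750 and ENSBGRG00000006799 were listed at 0 in all libraries. TDRD15 (ENSBGRG00000019929) was at 2.86 to 3.27 FPKM at 1.5 years and at 2.44 to 3.00 FPKM at 5 years, and its second row, ENSBGRG00000019965, at no more than 0.0697 FPKM. The third TDRD7 row, ENSBGRG00000001382, was at 0.139 to 0.368 FPKM over all libraries.

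Of the 22 rows, 13 had a mean of at least 0.5 FPKM over the libraries and were tested, and 9 were not. None of the 13 had an adjusted p under 0.05 in limma, a level that 4 of the 12437 genes tested (0.0322%) reached. At an unadjusted p under 0.05, 3 of the 13 passed, which is 23.1% beside 25.1% of all genes tested, and 2 of 12 without PIWIL3, the row that passed the filter only through the libraries of 5 years. TDRD10 and PIWIL3 passed on the side of 5 years, where the share of all genes was 14.2%, and the TDRD7 row ENSBGRG00000001437 passed on the other side, where it was 10.9%. The count was 2 of 11 with 1 row per symbol, an alternative chosen after the values were seen. The ages did not overlap in 4 of the 13 rows (30.8%), beside 33.7% of all genes, with 3 rows higher at 5 years (19.8% of all genes) and 1 lower (13.9%). Without PIWIL3 it was 3 of 12 rows. The median log2 fold change of the 13 rows was 0.01 and that of all genes 0.04. Log2 fold changes of 7 rows were above and of 6 below 0, counts that include the rows whose sign changed with the scaling.

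The adjusted p depended on a single library. Without replicate 2 of 5 years, 2403 of the 12437 genes tested had an adjusted p under 0.05 in limma, beside 3 of the 13 rows. The 3 were TDRD10, the TDRD7 row ENSBGRG00000001437 (0.0373) and PIWIL3 (0.0363), which passed the filter only through the libraries of 5 years. The unadjusted p of PIWIL3 was under 0.05 in 8 of 13 alternatives. It was 0.0835 without replicate 1 and 0.0714 without replicate 3 of 5 years, 0.0639 without replicate 1 and 0.0786 without replicate 2 of 1.5 years, and 0.0503 under quantile normalization.

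**Figure D2:**
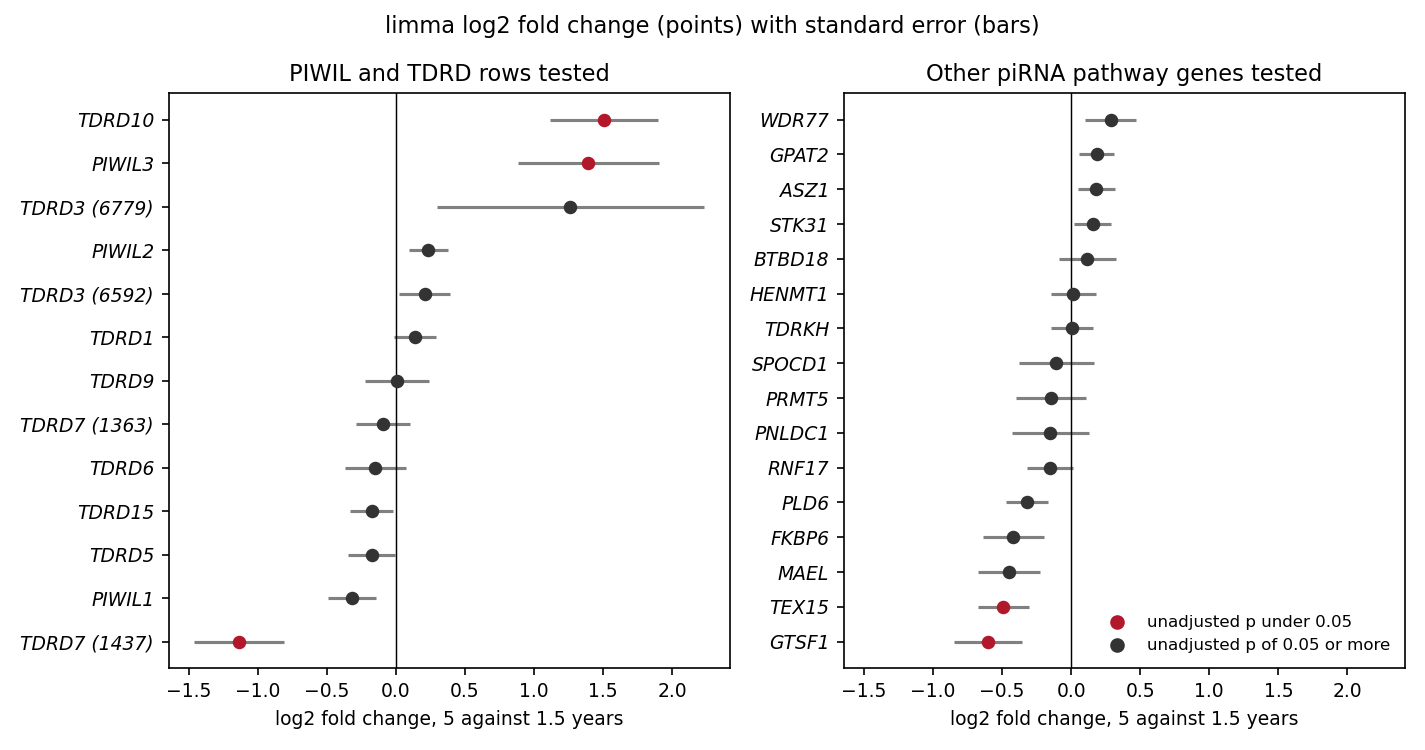
Log2 fold change of 5 against 1.5 years from limma (points) with its standard error (bars) for the 13 PIWIL and TDRD rows and the 16 other piRNA pathway genes tested. The number beside a repeated symbol is the end of its identifier. Red points had an unadjusted p under 0.05, and none had an adjusted p under 0.05.

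Other genes of the piRNA pathway were taken from a list of 22, of which 17 have a row under their symbol and 16 were tested. None had an adjusted p under 0.05, and 2 of 16 (12.5%) had an unadjusted p under 0.05, beside 25.1% of all genes. GTSF1, a small zinc finger protein that stimulates PIWI cleavage, had the highest level of the 17 genes with a row. It was at 121, 106 and 110 FPKM at 1.5 years and at 52.7, 100 and 75.4 FPKM at 5 years. Its libraries of 5 years were all below those of 1.5 years (log2 fold change -0.60, SE 0.25, adjusted p = 0.191). TEX15, which acts with PIWIL4 in transposon methylation, was at 25.6, 21.5 and 25.1 FPKM against 13.8, 20.8 and 17.2 FPKM, again without overlap (log2 fold change -0.49, SE 0.19, adjusted p = 0.174). These 2 are the genes with an unadjusted p under 0.05 in limma. GTSF1 had one in 6 of 14 alternatives and TEX15 in 9 of 14, and neither had one with a replicate block or under quantile normalization.

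The factors that make and finish piRNAs had no p under 0.05. PLD6, the mitochondrial nuclease that cuts precursors, was at 17.9 ± 1.93 FPKM at 1.5 years and 14.4 ± 1.42 FPKM at 5 years (SD, n = 3 each, limma adjusted p = 0.231). PNLDC1, which trims piRNA ends, and HENMT1, which methylates them, had log2 fold changes of -0.15 and 0.02. The mitochondrial proteins ASZ1 and GPAT2 had log2 fold changes of 0.18 each, and in both the libraries of 5 years lay above all those of 1.5 years. MAEL, a factor of the piRNA granules, and FKBP6, a chaperone of piRNA loading, had values of -0.45 and -0.42 with overlapping ages. PRMT5 and WDR77, which place the arginine methylation that Tudor domains read, were at -0.14 and 0.29. The Tudor proteins outside the TDRD names were at -0.15 (RNF17), 0.16 (STK31) and 0.01 (TDRKH). SPOCD1 and BTBD18, nuclear factors of transposon methylation and of piRNA precursor transcription, were at -0.11 and 0.12, and MORC1, at no more than 0.303 FPKM, was not tested. The median over the 16 genes was -0.13, and it was 0.03 without replicate 1 of 5 years. The signs of HENMT1, RNF17, PRMT5 and TDRKH changed with the scaling of the libraries. In 5 of the 16 the ages did not overlap, beside 33.7% of all genes, with 2 higher (19.8% of all genes) and 3 lower (13.9%) at 5 years. Among the 6 rows whose deposited GO terms name piRNA, which are FKBP6, PLD6, GPAT2, BTBD18 and a pair of rows of CSNK1D, 5 were tested, and 0 had an unadjusted p under 0.05.

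Markers of cell types differed between libraries, most of all in replicate 1 of 5 years for those of spermatids and Sertoli cells. In bulk tissue, fewer cells of a type and less RNA per cell cannot be told apart. The summed FPKM of 8 spermatocyte markers was between 52.4 and 60.4 in all 6 libraries, and none of them had an unadjusted p under 0.05. Single markers went both ways. In replicate 1 of 5 years SYCP3 was at 0.60 and SYCP2 at -0.63 relative to the log2 mean of 1.5 years. RNA-directed DNA polymerase activity was a term on 4 of these 8 rows. It was also on 2 of 5 round spermatid rows and on 1 row each of stromal cells and macrophages. Which rows stand for the named gene was not tested. The 4 elongating spermatid markers in the table (TNP1, HMGB4, GAPDHS and ODF1) summed to 1154 to 1195 FPKM at 1.5 years and to 263, 849 and 731 FPKM at 5 years, and all 4 had an unadjusted p under 0.05. The sum over 5 round spermatid markers was 367 to 381 FPKM at 1.5 years and 99.2, 296 and 200 FPKM at 5 years, with 2 of 5 under that threshold. These sums were not used to choose between the stage labels, and which of those labels holds was not tested. Sertoli cell markers (5 genes) summed to 71.9 to 83.9 FPKM at 1.5 years and to 250, 104 and 130 FPKM at 5 years, all 5 with an unadjusted p under 0.05. Markers of spermatogonia (6 genes) summed to 54.9 to 61.7 FPKM and to 113, 61.9 and 68.6 FPKM, with none under the threshold. Those of peritubular and stromal cells (4 genes) summed to 15.2 to 17.8 and to 33.4, 21.2 and 29.7 FPKM, with 3 under it. Of the Leydig cell, macrophage and endothelial markers, 1 of 2, 1 of 4 and 0 of 3 tested were under it. Single genes made up most of some of the sums. In replicate 1 of 5 years DMRT1 held 64.8 of the 113 FPKM of spermatogonia. INHA held 211 of the 250 FPKM of Sertoli cells there, and TNP1 held 201 of the 263 FPKM of elongating spermatids. No marker of these lists had an adjusted p under 0.05. The part of these markers in the levels of the piRNA genes was not tested.

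**Figure D3:**
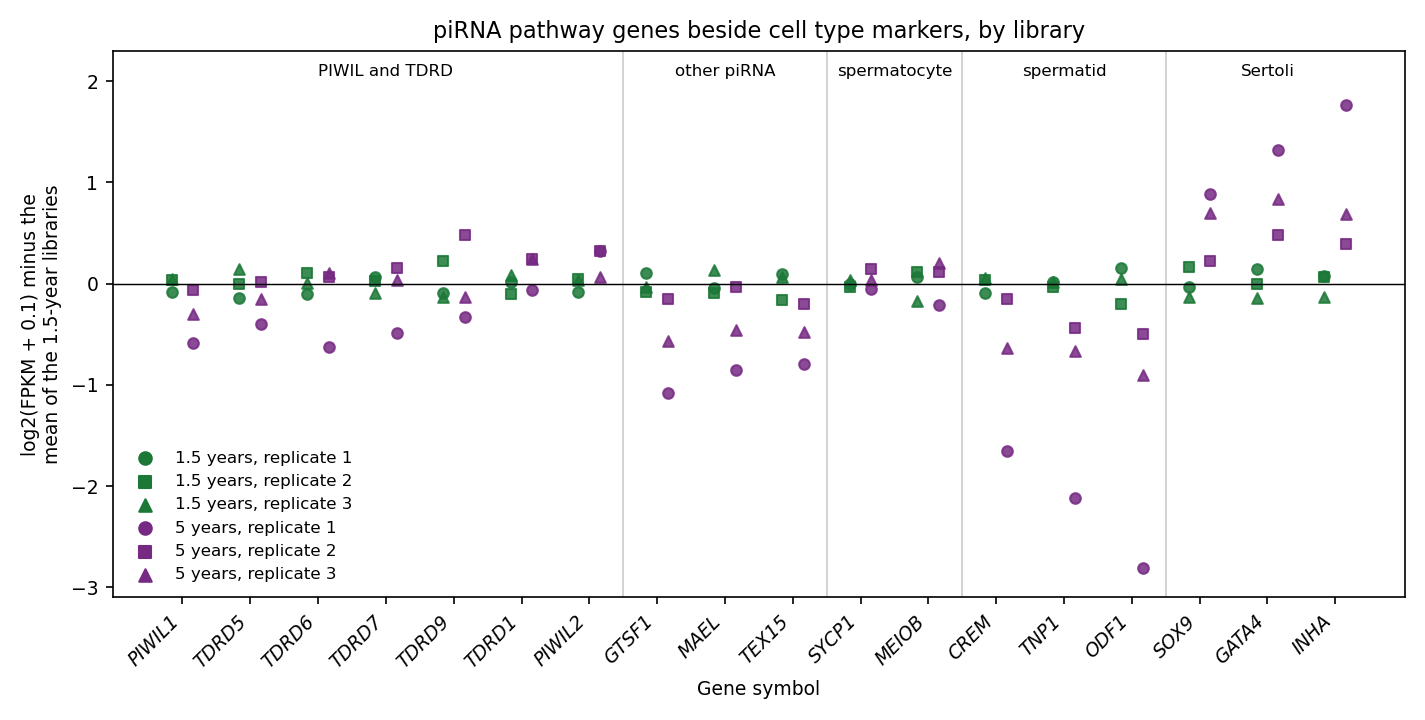
Difference of each library from the mean of the libraries of 1.5 years, in log2(FPKM + 0.1), for 7 PIWIL and TDRD genes, GTSF1, MAEL and TEX15 and for some of the markers of spermatocytes, spermatids and Sertoli cells. Of the other pathway genes not drawn, ASZ1, GPAT2, STK31, BTBD18, SPOCD1, MORC1 and WDR77 lay above 0 in replicate 1 of 5 years and the rest below. Of the spermatocyte markers not drawn, SYCP3 and SPO11 lay above 0 there, and SYCP2, DMC1, HORMAD1 and MLH3 below. In replicate 1 of 5 years PIWIL1, GTSF1 and MAEL lay below 0 as the spermatid markers did, PIWIL2 lay above 0, and the Sertoli cell markers lay farthest above among the genes drawn, which do not include TDRD10 and PIWIL3.

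Across the 6 libraries the log2 levels of some pathway genes followed those of PIWIL1. Pearson's r with PIWIL1 was 0.97 for MAEL, 0.95 for GTSF1, 0.94 for RNF17 and 0.92 for TDRD5. It was 0.92 for FKBP6, 0.91 for TEX15, 0.79 for TDRD6, 0.74 for TDRD7 (ENSBGRG00000001363), 0.73 for PRMT5 and 0.69 for PLD6. For TDRD9 it was 0.60, for TDRKH 0.33 and for TDRD1 0.08. Below 0 were ASZ1 (-0.38), STK31 (-0.44), PIWIL2 (-0.52), TDRD3 (-0.59) and GPAT2 (-0.65). The spermatid marker CREM had an r of 0.99, and the Sertoli cell marker INHA had -0.97. The 5 genes most like PIWIL1 among 5637 with a mean of at least 5 FPKM were SPIN4, TECPR2, TBC1D20, TBC1D2 and DCUN1D3, with r between 0.993 and 0.999. Such values were common, since 1179 of the 5637 genes had an r over 0.9, and the points share the 2 ages and the library that stands apart.

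PIWI and Tudor levels were also set against PIWIL1 within each library, where a scale factor of the library cancels. This ratio was chosen after the values had been seen. The level of PIWIL2 as a fraction of PIWIL1 was 0.147, 0.149 and 0.146 at 1.5 years and 0.277, 0.194 and 0.19 at 5 years. The 3 younger animals thus differed little, and all 3 older animals lay above them. On the log2 scale the difference was 0.56, and it was 0.38 without replicate 1 of 5 years. The ratio of TDRD1 to PIWIL1 was 0.662, 0.561 and 0.634 at 1.5 years and 0.887, 0.764 and 0.897 at 5 years, a log2 difference of 0.46, or 0.42 without that library. TDRD10 and PIWIL3 had log2 differences of 1.96 and 2.04, and the TDRD7 row ENSBGRG00000001437 one of -0.86. In each of these 5 rows the ratio did not overlap between the ages. A two-sided exact permutation p is then always 0.1, the smallest that 3 against 3 animals can give, so it adds nothing to this. PIWIL1 itself had a log2 fold change of -0.32 in limma, which is part of every ratio. Those of PIWIL2 and TDRD1 themselves were 0.24 and 0.14. The ratios of TDRD5, TDRD6, TDRD9, TDRD7 (ENSBGRG00000001363), TDRD3 and TDRD15 overlapped between the ages. The 4 ratios of 11 that were higher at 5 years compare with 31.3% of all genes with a ratio, and the 1 that was lower with 6.2%. Without PIWIL3 the former count was 3 of 10. Without replicate 1 of 5 years, 6 of 11 were higher (33.3% of all genes) and 1 was lower (7.37%).

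**Figure D4:**
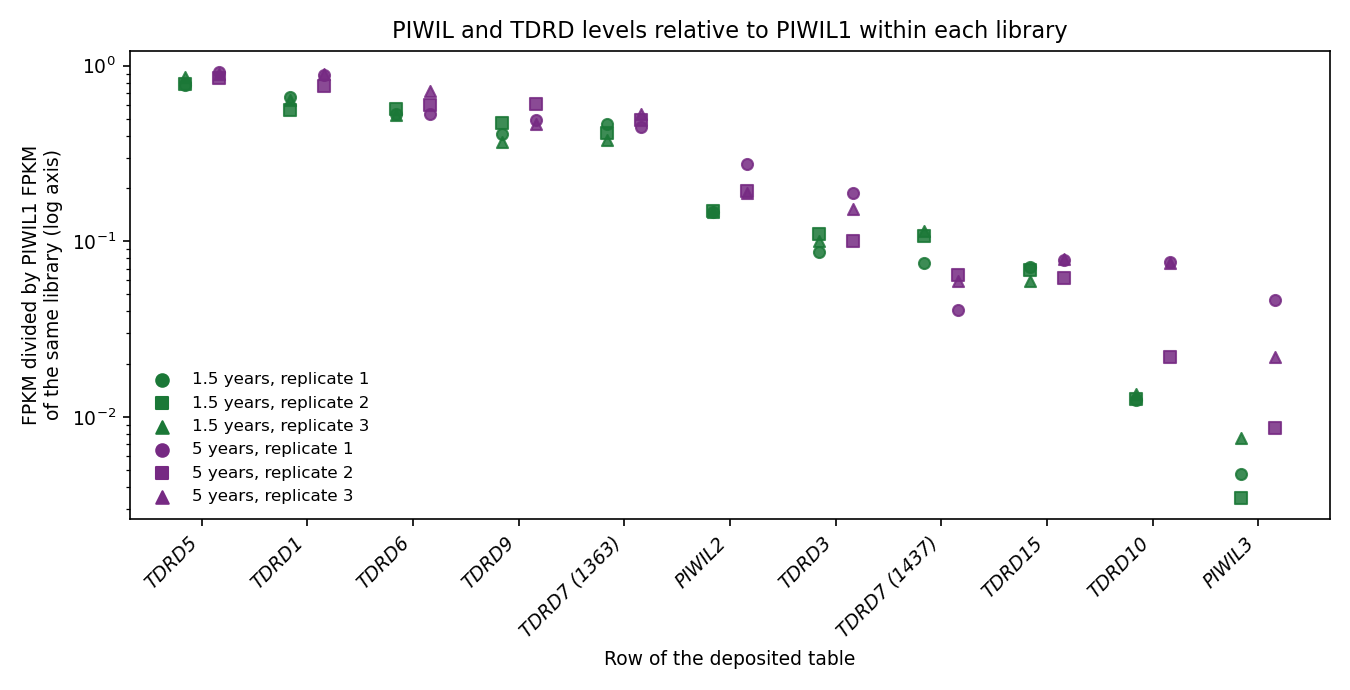
FPKM of each PIWIL and TDRD row divided by the FPKM of PIWIL1 in the same library (log axis), for the 11 rows tested that had a value above 0 in every library. PIWIL2 and TDRD1 had higher ratios in all libraries of 5 years than in those of 1.5 years, while the ratio of TDRD5 overlapped between the ages.

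The libraries of 5 years differed more from each other than those of 1.5 years. The SD of log2(FPKM + 0.1) was larger at 5 years in 11 of the 13 rows (84.6%) and in 73.6% of all genes tested. The SD of PIWIL1 was 6.72 FPKM at 5 years against 2.25 FPKM at 1.5 years, and that of TDRD6 was 6.06 against 1.80 FPKM.

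The deposited table of differential m6A peaks between the ages holds 1 peak on the 22 rows. m6A is a methylated adenosine in mRNA, and the authors called these peaks with MeTDiff and placed them on the assembly LU_Bosgru_v3.0. The TDRD3 row ENSBGRG00000006592 carried this peak at chromosome 15, 83534505 to 83534654, in exon 9 of 12 of its annotated transcript. The peak lay 178994 bp from the start of the gene. Whether this row stands for TDRD3 was not tested. Its gene lies on the plus strand from 83355511 to 83589237. The peak was 150 bp wide, and 12.2% of the 1438 differential peaks were no wider. Differential peaks lay on 5.63% of all rows of the expression table and on 9.29% of the genes tested, beside 1 of 22 and 1 of 13 here. Peaks of at most 1000 bp, as this one, lay on 3.96% of all rows. The table gives neither the direction nor a value per animal, so that no test was made. The mRNA of TDRD3 overlapped between the ages, as given above. PIWIL1, PIWIL2 and the Tudor genes of high level had no differential peak, and a peak present at both ages would not be in this table. On the list of other pathway genes, BTBD18 (ENSBGRG00000006359) carried a differential peak of 348 bp at chromosome 13, 2216686 to 2217033, in exon 4 of 4, with an mRNA level of 1.81 ± 0.11 FPKM at 1.5 years and 2.00 ± 0.418 FPKM at 5 years (SD, n = 3 each).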

How the data were processed

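The authors deposited FPKM values of 20953 genes for 6 input libraries, 1 from each animal. According to the methods, Trimmomatic and SortMeRNA cleaned the reads, HISAT2 (2.0.4 in the submitters' processing notes) placed them on LU_Bosgru_v3.0, and reads with more than 1 position were dropped, which can lower near-identical copies. The program that gave the FPKM is not given in the sources used here. Fragment counts are not used here. Over genes under 0.3 FPKM, the median ratio of low values to replicate 1 of 1.5 years was 0.917 to 1.01. Only ratios near 1 were kept for this median, so it cannot show whether the libraries were of like depth. Differential peaks are the authors' own (MeTDiff, p up to 0.05 and fold from 1.5, annotated with ChIPseeker), and only positions and widths were read from their deposited table, which lists no fold or p. Peak tables of single ages and the IP libraries were not used here.

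A limma fit (version 3.58.1 in R 4.3.3, by lmFit, then eBayes with its trend option) was made on log2(FPKM + 0.1) of the 12437 genes with a mean of 0.5 FPKM or more. Its p-values were adjusted over all of these genes by Benjamini-Hochberg, and its fold changes, on the log2(FPKM + 0.1) scale, understate those of low genes. It was tested on simulated data. Every row that met the symbol rule was described, pathway genes and markers were read at their row of highest mean FPKM, and the 5 genes most like PIWIL1 by Pearson's r among genes of at least 5 FPKM were named. Members and lists were chosen with earlier results of these data known. MYBL1, MOV10L1, DNMT3L, DDX4 and EXD1 of the pathway list were not analysed here. Alternatives were pseudocounts, filters and scalings, eBayes without a trend, a replicate block, and each library left out. Tables and plots were made in Python 3.11.15 with numpy 2.4.6, pandas 2.3.3, matplotlib 3.10.9 and scipy 1.17.1.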

Additional observations from a re-analysis of the deposited data

How the results depend on the processing

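With all libraries in the fit, no PIWIL or TDRD row and no other pathway gene had an adjusted p under 0.05 under any alternative. Leaving out each library in turn gave 0 to 3 of 13 PIWIL and TDRD rows and 0 to 2 of 16 other pathway genes with one. The 3 and the 2 (GTSF1 and TEX15) came without replicate 2 of 5 years, where 2403 of 12437 genes had one. Of the single-gene values under an alternative, 374 kept their direction and side of that threshold, 5 passed it and 25 changed sign. The causes were not tested.

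At an unadjusted p under 0.05, the PIWIL and TDRD rows higher at 5 years (2) numbered 1 with a minimum mean of 1 FPKM, 1 without rows of reverse transcriptase terms, 1 without PIWIL3, and 1 to 2 with a library left out. Those lower (1) numbered 2 with no filter, 0 with 1 row per symbol, 0 without rows of reverse transcriptase terms, and 1 to 2 with a library left out. The choices of 1 row per symbol and of dropping reverse transcriptase terms or PIWIL3 were made after seeing the data. The other pathway genes lower at 5 years (2) numbered 1 without the trend, 1 with no filter, 0 under quantile normalization, 0 with the replicate block, 3 scaled to the median ratio (with PLD6) and 0 to 4 with a library left out. With a library left out, median log2 fold changes ranged from -0.18 to 0.14 for the PIWIL and TDRD rows and from -0.15 to 0.029 for the other pathway genes. The former was 0.16 under quantile normalization, and the latter -0.17 with libraries scaled to the median ratio.

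The ages were of different animals, so replicate numbers gave no pairs by design. Same-numbered libraries had correlations of -0.022, -0.091 and 0.0067 in their deviations from the group means, and differently numbered ones -0.13 to 0.144. Whether same-numbered libraries shared a batch was not tested. With the number as a replicate block, 2565 genes in place of 3123 had an unadjusted p under 0.05, and of the PIWIL and TDRD rows 2 were higher and 1 lower.

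Under quantile normalization the log2 fold change was 0.024 for TDRD5, 0.027 for TDRD6, 0.052 for TDRD7 (ENSBGRG00000001363), -0.091 for HENMT1, 0.053 for RNF17 and 0.048 for PRMT5. Scaled to the median ratio it was -0.037 for TDRD9, -0.037 for TDRKH and -0.028 for HENMT1. With each library left out it ranged from -0.28 to 0.089 for TDRD6, from -0.23 to 0.18 for TDRD9, from -0.22 to 0.098 for TDRD7 (ENSBGRG00000001363), from -0.068 to 0.11 for TDRKH, from -0.038 to 0.11 for HENMT1, from -0.35 to 0.065 for PNLDC1, from -0.0067 to 0.29 for BTBD18, from -0.40 to 0.056 for SPOCD1 and from -0.29 to 0.15 for PRMT5.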
